A study of Homo sapiens with 6 samples.

Results

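Genes of autophagy and the lysosome were examined in Ker-CT, a line of human keratinocytes made immortal by telomerase and CDK4. The set held 47 named genes, chosen by symbol from the 58302 gene entries of the deposited table, and all 47 were found and passed the filter on low counts. The cells had received siRNA against KMT2C, a histone H3 lysine 4 methyltransferase (siKMT2C, 3 libraries), or negative-control siRNA (siNC, 3 libraries). Both groups were then under the M5 cocktail for 24 h, which is oncostatin M, IL-1α, IL-22, TNF-α and IL-17A at 10 ng/ml each and serves as a cell model of psoriasis. The cocktail was thus shared by all 6 libraries, and no unstimulated culture was analysed here. The sources used here give neither the number nor the sequences of the siRNAs, and the labels do not say whether replicates were separate cultures, so p-values measure the spread between these libraries, which may be technical.

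Macroautophagy encloses cytoplasm in a double membrane and delivers it to the lysosome. The ULK1 kinase complex starts the process, the class III PI3-kinase complex marks the site with a lipid, ATG2 and ATG9A supply membrane, and conjugation enzymes attach ATG8-family proteins to it. Cargo receptors such as SQSTM1 (p62) link ubiquitinated cargo to ATG8 proteins, RAB7A directs fusion with the lysosome, and cathepsins digest the contents. TFEB and TFE3 are transcription factors that switch on lysosomal genes. In epidermis, autophagy and lysosomes take part in the breakdown of organelles as keratinocytes cornify. Transcript levels do not measure autophagic flux, and in bulk RNA fewer cells with a transcript and less of it per cell cannot be told apart.

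In siKMT2C libraries 3 members fell and none rose. They were TP53INP2, a nuclear protein that moves to the autophagosome and binds ATG8 proteins, RAB7B, a paralog of RAB7A that acts in transport between endosomes and the Golgi, and SQSTM1. TP53INP2 stood at 33.0% of its siNC level (95% interval 26.4% to 41.3%), RAB7B at 22.7% (13% to 39.5%) and SQSTM1 at 67.9% (57.6% to 80%). The calls were 6.38% of the 47 members, beside 1.5% of all 15063 genes tested, of which 0.81% were called lower and 0.69% higher. A call is a p-value under 0.05 in edgeR's quasi-likelihood test after Benjamini-Hochberg adjustment over all genes. DESeq2 and limma-voom called the same 3 members and no other. TP53INP2 and RAB7B were singled out in the set with earlier results of these libraries known, so their calls are a description. Among the other 45 members 1 was called, which is 2.22%.

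The start regions of the 3 called genes are shown because they are the members that fell together, from RefSeq on GRCh38.p14, each 250 bases before to 50 after the gene's start, 5′ to 3′ on the gene's strand. They are chr20:34704094-34704393 (plus strand) for TP53INP2, chr1:206003346-206003645 (minus strand) for RAB7B and chr5:179806143-179806442 (plus strand) for SQSTM1. Capitals mark a match to a searched motif.
TP53INP2: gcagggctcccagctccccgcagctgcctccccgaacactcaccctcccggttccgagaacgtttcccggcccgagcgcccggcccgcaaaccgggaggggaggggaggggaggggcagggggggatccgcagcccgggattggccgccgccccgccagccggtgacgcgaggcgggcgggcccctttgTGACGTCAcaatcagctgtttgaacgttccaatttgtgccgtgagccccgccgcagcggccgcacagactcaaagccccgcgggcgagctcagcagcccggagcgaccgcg
RAB7B: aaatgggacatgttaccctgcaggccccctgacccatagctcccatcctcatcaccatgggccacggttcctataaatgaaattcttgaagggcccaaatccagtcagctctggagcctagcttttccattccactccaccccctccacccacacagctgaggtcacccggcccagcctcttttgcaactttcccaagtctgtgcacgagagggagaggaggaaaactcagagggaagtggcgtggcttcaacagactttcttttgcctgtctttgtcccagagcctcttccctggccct
SQSTM1: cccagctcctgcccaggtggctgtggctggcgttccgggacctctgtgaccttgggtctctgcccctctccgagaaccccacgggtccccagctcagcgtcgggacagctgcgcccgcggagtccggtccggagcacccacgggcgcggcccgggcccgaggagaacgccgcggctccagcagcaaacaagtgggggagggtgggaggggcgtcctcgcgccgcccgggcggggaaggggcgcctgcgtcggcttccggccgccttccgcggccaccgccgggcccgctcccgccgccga
GC content was 73.0% for TP53INP2, 55.0% for RAB7B and 77.0% for SQSTM1. The motifs searched on both strands were CACGTG (the E-box), TCACGTGA (the core of the site bound by TFEB, which contains CACGTG), TGACNNNGC (the core of the antioxidant response element) and GTAAACA (the FOXO site). None of these occurred in the 3 windows. TGACGTCA, the cyclic AMP response element, was added after the TP53INP2 sequence had been read. It occurs there 1 time, starting 61 bases before the start, in 2 of the 41 member windows found, those of TP53INP2 and the uncalled GABARAPL1 (4.88%), and in 1.85% of all 35093 RefSeq windows of this length. TCACGTGA occurred in 3 member windows, those of ATG3, LAMP1 and MCOLN1 (7.32%, against 0.98% of all windows), and CACGTG in these and in CTSD and ATG14 (12.2% against 7.26%). TGACNNNGC was in 6 member windows (14.6% against 13.4%) and GTAAACA in 2 (4.88% against 3.42%). No window was found for RB1CC1, UVRAG, MAP1LC3A, STX17, LAMP2 and CTSB. Member shares count 1 window per gene, while the shares of all windows count every distinct window of every gene, so the 2 are not on the same footing. Any other start of a member was not searched.

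The libraries held 15921870 to 16414777 counts in siKMT2C and 14409277 to 17539519 in siNC. KMT2C itself stood at 37.1% of its siNC level (log2 fold change -1.43, SE 0.14, edgeR adjusted p = 0.00786). That call was lost without siKMT2C replicate 1 (edgeR adjusted p = 0.0634), siKMT2C replicate 2 (0.0507) or siNC replicate 2 (0.0593). It held without siKMT2C replicate 3 (0.0387), siNC replicate 1 (0.0301) or siNC replicate 3 (0.00399). All 8 keratinocyte markers were detected, with a summed level of 12700 to 17900 CPM (counts scaled to library size) in siKMT2C and 12900 to 19300 CPM in siNC. None was called by edgeR, while TP63 (log2 fold change -0.69, edgeR adjusted p = 0.144) and ITGA6 (-0.51, 0.0665) were lower and COL17A1 (0.72, 0.0702) higher in every siKMT2C library. The leukocyte markers PTPRC, CD207 and CD3E, the endothelial markers PECAM1 and CDH5, and the melanocyte markers TYR and DCT were at 0 in every library. The 5 melanocyte markers, 3 of them detected, summed to 2.03 to 3.06 CPM in siKMT2C and 2.31 to 3.38 CPM in siNC. The 3 endothelial markers, 1 of them detected, reached at most 0.0614 CPM in siKMT2C and 0.0692 CPM in siNC. The 6 fibroblast markers summed to 12.7 to 16.5 CPM in siKMT2C and 20.3 to 30.4 CPM in siNC. The 5 leukocyte markers, 2 of them detected, summed to 0.183 to 0.321 CPM in siKMT2C and 1.09 to 1.38 CPM in siNC. Their part in the results was not tested. Replicate 3 of each group differed from the mean of the other 2 along transcript GC content, a comparison not made for replicates 1 and 2. Across the 47 members, which share the libraries and their depth, its log2 deviation from the mean of replicates 1 and 2 correlated with GC at r = 0.58 in siKMT2C and r = 0.77 in siNC (across all genes tested, 0.41 and 0.65). In siNC replicate 3, GC-rich ATG101 (0.78), CTSD (0.74), MCOLN1 (0.68) and TFE3 (0.52) were high, as log2 deviations. AT-rich ATG5 (-0.60), ATG12 (-0.59), RB1CC1 (-0.55) and LAMP2 (-0.54) were low. The lowest members there were not AT-rich: GABARAPL1 (-0.88, 47.8% GC), RAB7B (-0.70, 53.1% GC) and TAX1BP1 (-0.62, 48.0% GC). In siKMT2C replicate 3 RAB7B deviated the other way (0.66).

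TP53INP2 (ENSG00000078804, chromosome 20, 34704290 to 34713439, GENCODE 29 on GRCh38) had 9.54, 9.12 and 9.64 CPM in siKMT2C replicates 1 to 3, against 28.0, 30.3 and 27.4 CPM in siNC replicates 1 to 3. The groups were far apart and each was tight, with 142 to 157 raw counts per siKMT2C library and 438 to 490 per siNC library. Its log2 fold change was -1.60 (SE 0.14, n = 3 per group, edgeR adjusted p = 0.00506). The edgeR test called it without any single library, with an adjusted p of 0.00399 to 0.0471 and a log2 fold change of -1.63 to -1.56. Those were 0.03 and -1.61 without siKMT2C replicate 3, and 0.00399 and -1.63 without siNC replicate 3. The whole of TP53INP2 lies within NCOA6 on the opposite strand, over 9150 bases, and strand use in counting was not given. NCOA6 had 94.1, 91.6 and 86.9 CPM in siKMT2C and 106.6, 119.7 and 110.5 CPM in siNC, a log2 fold change of -0.31 (SE 0.12) that was not called (edgeR adjusted p = 0.24). The level of TP53INP2 can therefore include reads of NCOA6.

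TP53INP1, the paralog of TP53INP2 and a p53 target that also binds ATG8 proteins, belonged to a wider list of core autophagy genes. It had 36.7, 36.0 and 36.8 CPM in siKMT2C and 73.1, 67.6 and 56.9 CPM in siNC. The groups did not overlap, and TP53INP1 fell to 55.5% of its siNC level (log2 fold change -0.85, SE 0.14, edgeR adjusted p = 0.0335). That call was lost without any one library other than siNC replicate 3, with an adjusted p of 0.182, 0.147 and 0.102 without siKMT2C replicates 1, 2 and 3 and 0.0925 and 0.158 without siNC replicates 1 and 2. Without siNC replicate 3 the log2 fold change was -0.95 (edgeR adjusted p = 0.0103).

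RAB7B (ENSG00000276600, chromosome 1, 205976740 to 206003461) was a low-level gene with 2.45, 1.67 and 3.81 CPM in siKMT2C, against 12.9, 14.3 and 7.94 CPM in siNC. These rest on 40, 26 and 62 raw counts in siKMT2C and 225, 206 and 141 in siNC. Every siKMT2C library lay below every siNC library, and the third replicates were the nearest to each other. The log2 fold change was -2.14 (SE 0.35, edgeR adjusted p = 0.0327). It was -2.36 without siNC replicate 3 (edgeR adjusted p = 0.0135), and it ran from -2.50 to -1.90 over the single omissions. The call was lost without siKMT2C replicate 1, 2 or 3 (adjusted p 0.169, 0.104 and 0.055) and without siNC replicate 1 or 2 (0.0916 and 0.138).

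RAB7A, the main RAB7 of late endosomes and lysosomes, had 309.1, 319.9 and 299.6 CPM in siKMT2C and 320.7, 248.7 and 333.5 CPM in siNC. Its groups overlapped, with a log2 fold change of 0.04 and a 95% interval of -0.28 to 0.36. With correction for GC content and length the sign turned (-0.02). Per length, RAB7B made up 0.637% ± 0.279 of the summed RAB7A and RAB7B level in siKMT2C and 2.91% ± 1.18 in siNC (SD, n = 3, CPM per kilobase of the longest transcript). STX17, the SNARE protein of the closed autophagosome, had 18.7, 18.3 and 20.9 CPM in siKMT2C and 26.1, 24.5 and 21.5 CPM in siNC. Its groups did not overlap, but it was not called (log2 fold change -0.31, SE 0.15, edgeR adjusted p = 0.332).

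**Figure D1:**
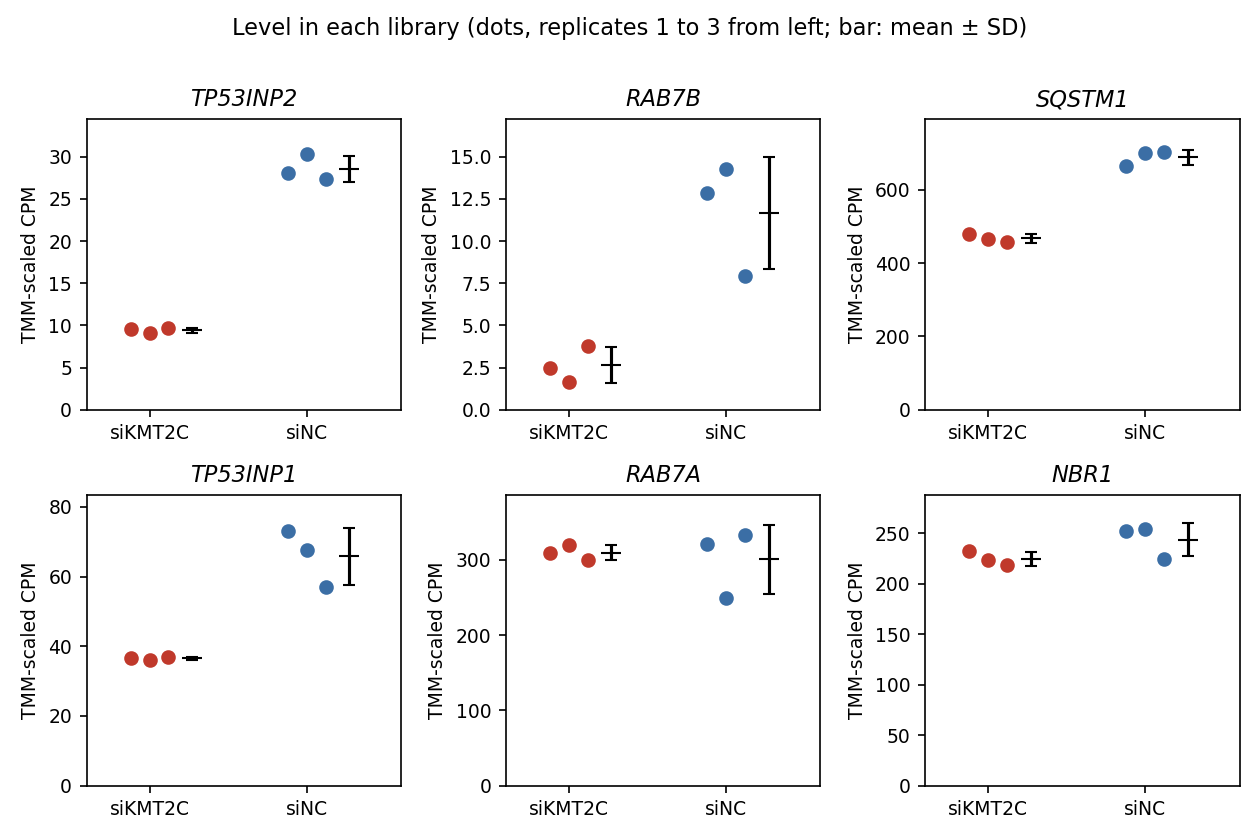
TMM-scaled CPM of TP53INP2, RAB7B and SQSTM1 (top) and of TP53INP1, RAB7A and NBR1 (bottom) in each library, with siKMT2C in red and siNC in blue. Dots are replicates 1 to 3, and bars give the mean ± SD (n = 3); in the top row and for TP53INP1 the groups do not overlap, while RAB7A spans 299.6 to 319.9 in siKMT2C and 248.7 to 333.5 in siNC.

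SQSTM1 (ENSG00000161011, chromosome 5, 179806398 to 179838078), the p62 receptor that is itself degraded with its cargo, had 480.2, 465.1 and 457.6 CPM in siKMT2C and 665.8, 699.1 and 701.9 CPM in siNC. The gap between the groups was far wider than the spread within either. SQSTM1 fell by 0.56 on the log2 scale (SE 0.10, edgeR adjusted p = 0.0462), close to the threshold. The call was lost with no filter on low counts (0.0745), after correction for GC content and length (0.065), without siKMT2C replicate 1, 2 or 3 (0.23, 0.189 and 0.145) and without siNC replicate 1 or 2 (0.0977 and 0.195), while the log2 fold change stayed between -0.59 and -0.48. Without siNC replicate 3 it was called (0.0283). Its ends overlap MGAT4B and MRNIP on the opposite strand, neither of them called. MGAT4B had 172.1, 186.9 and 190.5 CPM in siKMT2C and 129.2, 154.7 and 206.6 CPM in siNC. MRNIP had 26.7, 19.0 and 21.8 CPM in siKMT2C and 26.1, 30.0 and 31.3 CPM in siNC. The pseudogene SQSTM1P1 held 0 counts.

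The other 4 cargo receptors were not called by edgeR, and none of them had an unadjusted p under 0.05. TAX1BP1, which links ubiquitinated cargo to the autophagy machinery, had 230.3, 255.3 and 197.1 CPM in siKMT2C and 204.7, 197.1 and 130.1 CPM in siNC. Its groups just overlapped, with siNC replicate 3 the lowest of the 6 libraries (log2 fold change 0.36, SE 0.19, edgeR adjusted p = 0.402). NBR1, OPTN and CALCOCO2, which bind ubiquitinated cargo too, had log2 fold changes of -0.12, -0.07 and 0.10. Per length, SQSTM1 made up 48.8% ± 1.68 of the summed level of the 5 receptors in siKMT2C and 59.6% ± 2.79 in siNC, and TAX1BP1 17.6% ± 1.57 in siKMT2C and 11.3% ± 2.39 in siNC (SD, n = 3). NBR1 made up 15.0% ± 0.476 in siKMT2C and 13.5% ± 0.558 in siNC, OPTN 12.4% ± 0.568 in siKMT2C and 10.8% ± 0.337 in siNC, and CALCOCO2 6.19% ± 1.27 in siKMT2C and 4.81% ± 0.553 in siNC. Shares of SQSTM1, TAX1BP1, NBR1 and OPTN did not overlap between the groups (exact two-sided permutation test, p = 0.1 each, the smallest that 3 against 3 libraries allow), while those of CALCOCO2 did. The 5 shares have a fixed sum, so a lower share of SQSTM1 raises the others together. On the longest transcript SQSTM1 was the highest of the 47 members in both groups, at 157 ± 3.85 CPM per kilobase in siKMT2C and 231 ± 6.72 in siNC. In the deposited FPKM, RAB7A was the highest in both groups (58.1 ± 1.5 in siKMT2C and 57.6 ± 9 in siNC), and SQSTM1 stood 3rd in siKMT2C (33.1 ± 0.987) and 2nd in siNC (49.7 ± 1.45).

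**Figure D2:**
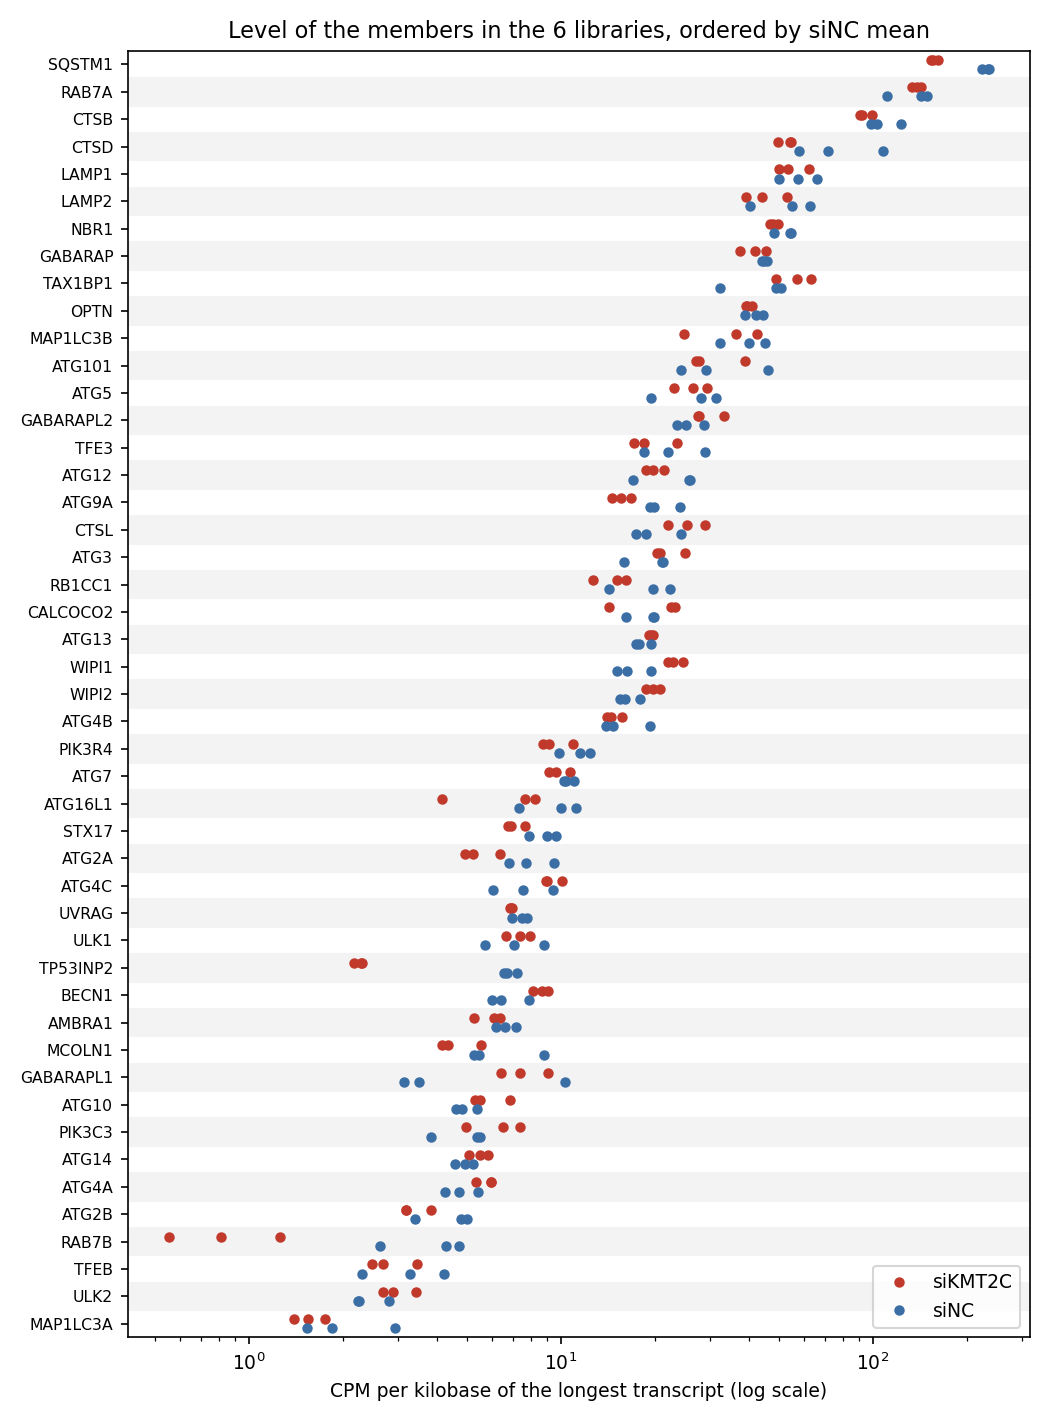
Level of all 47 members in each library, as CPM per kilobase of the longest annotated transcript on a log axis, with siKMT2C in red above siNC in blue and genes ordered by their siNC mean. On this length SQSTM1 leads in both groups and TP53INP2 stands 45th of 47 in siKMT2C and 34th in siNC; by deposited FPKM RAB7A leads, and TP53INP2 stands 41st in siKMT2C and 21st in siNC.

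Over all 47 members, the log2 fold change was negative in 29 (61.7%) with a median of -0.10, beside 50.3% negative and a median of -0.003 over all genes tested. An unadjusted p under 0.05 was found for 8 members (17%), beside 16.9% of all genes. All 3 siKMT2C libraries lay below all 3 siNC libraries in 8 members, which is 17% beside 12.3% of all genes. They lay above them in 3 members, BECN1, WIPI1 and WIPI2, which is 6.38% beside 11.8% of all genes. Leaving out TP53INP2 and RAB7B, singled out with earlier results known, 45 members remained. Of these, 6 lay lower without overlap, 6 (13.3%) had an unadjusted p under 0.05 in edgeR, and 27 (60.0%) were negative. Apart from the called genes, every member had a log2 fold change between -0.59 and 0.46.

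In the ULK1 complex none of 5 members was called by edgeR or had an unadjusted p under 0.05 (median log2 fold change 0.02). RB1CC1, the FIP200 scaffold of the complex, had 100.1, 107.8 and 84.4 CPM in siKMT2C and 148.4, 130.7 and 95 CPM in siNC. The third replicates were the lowest of each group and the groups overlapped (log2 fold change -0.36, SE 0.19, edgeR adjusted p = 0.392). ULK2, a kinase paralog of ULK1, had 17.4, 20.6 and 16.2 CPM in siKMT2C and 13.4, 17 and 13.6 CPM in siNC, with overlap and no call (0.30, SE 0.17, edgeR adjusted p = 0.431). ULK1 itself lay at 0.02, with a sign that turned under library size alone (-0.005), and ATG13 and ATG101, its regulatory partners, at 0.09 and -0.09.

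In the class III PI3-kinase complex none of 6 members was called by edgeR (median 0.03), and 1 had an unadjusted p under 0.05. BECN1, its Beclin 1 subunit, had 39.7, 44.3 and 42.4 CPM in siKMT2C and 38.3, 31.3 and 29.3 CPM in siNC. All siKMT2C values were above all siNC values, by a log2 fold change of 0.35 (SE 0.15, edgeR adjusted p = 0.283). PIK3C3, the lipid kinase VPS34, had 61.8, 69.9 and 46.9 CPM in siKMT2C and 50.8, 52.1 and 36.2 CPM in siNC. Both groups were lowest in replicate 3 and overlapped (0.36, SE 0.20, edgeR adjusted p = 0.425), and with correction for GC content and length PIK3C3 was called (0.47, edgeR adjusted p = 0.0385). PIK3R4, ATG14, UVRAG and AMBRA1 ran from -0.23 to 0.16.

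The group for lipid supply to the growing membrane held ATG2A, ATG2B and ATG9A, together with the lipid-binding proteins WIPI1 and WIPI2. None of these 5 was called by edgeR, while 3 had an unadjusted p under 0.05, as had 16.9% of all genes. In 4 of the 5 the groups did not overlap, 2 lower and 2 higher in siKMT2C, beside 12.3% lower and 11.8% higher among all genes. WIPI1 had 46.6, 43.2 and 41.8 CPM in siKMT2C and 30.8, 36.7 and 28.4 CPM in siNC. All siKMT2C libraries were higher (log2 fold change 0.46, SE 0.15, edgeR adjusted p = 0.167). ATG2A, a lipid transfer protein, had 33.2, 31.3 and 40.4 CPM in siKMT2C and 43.4, 49.0 and 60.3 CPM in siNC. All siKMT2C libraries were lower, with the third replicates the highest of each group (-0.54, SE 0.17, edgeR adjusted p = 0.17). The lipid scramblase ATG9A (-0.42) was also lower in every siKMT2C library and WIPI2 (0.26) higher in each, and ATG2B was at -0.37. With correction for GC content and length WIPI2 was called (0.36, edgeR adjusted p = 0.034) and RB1CC1 of the ULK1 complex was too (-0.30, 0.0472).

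None of 9 conjugation genes was called by edgeR or had an unadjusted p under 0.05, and their median log2 fold change rounded to 0. ATG16L1, which directs the conjugation to membranes, had 34.9, 17.5 and 32.3 CPM in siKMT2C and 30.8, 42.2 and 47.3 CPM in siNC. Its siKMT2C replicate 2 was far below the other 5 libraries (log2 fold change -0.51, SE 0.28, edgeR adjusted p = 0.407). ATG4A, an ATG8 protease, had 14.9, 15.0 and 13.4 CPM in siKMT2C and 13.6, 11.8 and 10.6 CPM in siNC. Its groups touched at their ends (0.26, SE 0.16, edgeR adjusted p = 0.473). The enzymes ATG3, ATG7 and ATG10, the proteases ATG4B and ATG4C, and ATG5 and ATG12 lay between -0.19 and 0.29.

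None of the 5 ATG8-family members was called by edgeR or had an unadjusted p under 0.05. MAP1LC3A, an LC3 gene at the bottom of the levels, had 2.20, 2.44 and 2.76 CPM in siKMT2C and 2.92, 2.42 and 4.62 CPM in siNC. Its groups overlapped (log2 fold change -0.43, SE 0.29, edgeR adjusted p = 0.515). GABARAPL2, of the GABARAP branch, had 63.2, 75.9 and 62.2 CPM in siKMT2C and 65.2, 57.3 and 53.8 CPM in siNC, again with overlap (0.19, SE 0.14, edgeR adjusted p = 0.562). MAP1LC3B and GABARAP lay at -0.18 and -0.11. GABARAPL1 was the least even, with 29.3, 23.8 and 20.7 CPM in siKMT2C and 11.3, 33.1 and 10.1 CPM in siNC. Its siNC replicate 2 was above every other library, and its log2 fold change of 0.44 had a 95% interval of -0.56 to 1.45. Without siNC replicate 2 the log2 fold change was 1.20 (edgeR adjusted p = 0.124), and it ran from 0.15 to 1.20 over the single omissions.

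For the 5 ATG8-family members, shares were taken of their summed deposited FPKM (fragments per kilobase, scaled to depth). MAP1LC3B2, another LC3 gene, belonged to a wider list and was left out of this sum. It had 10.7 ± 1.9 FPKM in siKMT2C and 9.7 ± 2.54 FPKM in siNC, so the shares are not those of the whole family. GABARAP took 33.6% ± 0.676 in siKMT2C and 35.5% ± 3.1 in siNC, MAP1LC3B 29.1% ± 5.58 in siKMT2C and 32.4% ± 3.19 in siNC, and GABARAPL2 32% ± 5.96 in siKMT2C and 27.1% ± 1.12 in siNC (SD, n = 3). GABARAPL1 took 3.2% ± 0.428 in siKMT2C and 2.3% ± 1.62 in siNC, and MAP1LC3A 2.1% ± 0.335 in siKMT2C and 2.78% ± 1.15 in siNC. For each of the 5 genes the shares overlapped between the groups (exact two-sided permutation tests, p = 0.2 to 0.6 and adjusted p = 0.6 over the 5 genes). The smallest p that 3 against 3 libraries allow is 0.1, above the threshold for a call, so no share could have passed. These tests therefore cannot decide whether the shares differ. FPKM shares depend on the length used. For 45 of the 47 members that length equalled the sum of all distinct annotated exons, 1.08 to 5.34 times the longest transcript, so genes with many alternative exons are understated in FPKM. On the longest transcript GABARAPL1 took 6.65% ± 0.871 in siKMT2C and 4.74% ± 3.23 in siNC.

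**Figure D3:**
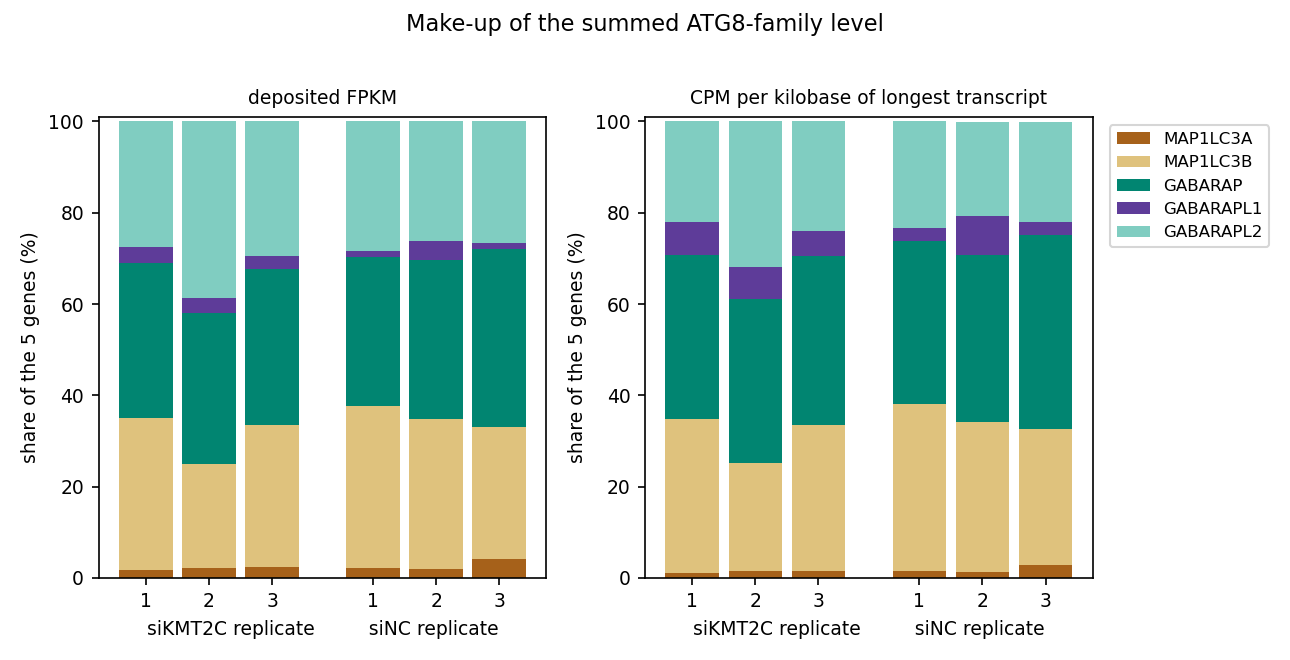
Share of each of the 5 ATG8-family members in their summed level in every library, from the deposited FPKM (left) and from CPM per kilobase of the longest transcript (right). MAP1LC3B2 is not in the sum. The 3 siKMT2C libraries stand left of the 3 siNC libraries in each panel; siKMT2C replicate 2 has the smallest MAP1LC3B share (22.8% of FPKM), and GABARAPL1 is wider on the right.

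Neither transcription factor was called by edgeR or had an unadjusted p under 0.05. TFE3 had 63.0, 58.6 and 80.3 CPM in siKMT2C and 62.9, 75.3 and 99.2 CPM in siNC, and TFEB 6.97, 6.42 and 8.97 CPM in siKMT2C and 6.01, 8.51 and 10.9 CPM in siNC. For both genes the third replicate was the highest of each group and the groups overlapped. The log2 fold changes were -0.23 (SE 0.20) for TFE3 and -0.19 (SE 0.26) for TFEB, with edgeR adjusted p of 0.621 and 0.773.

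Of 6 lysosomal members none was called by edgeR, and CTSD alone had an unadjusted p under 0.05. CTSD, the aspartic protease cathepsin D, had 115.4, 105.1 and 116.2 CPM in siKMT2C and 152.2, 123.3 and 230.1 CPM in siNC. All siKMT2C libraries were lower, and siNC replicate 3 stood well above the rest. The log2 fold change was -0.59 (SE 0.22, edgeR adjusted p = 0.231), and -0.30 without siNC replicate 3. MCOLN1, a calcium channel of the lysosomal membrane, had 12.5, 9.38 and 9.83 CPM in siKMT2C and 11.9, 12.3 and 19.9 CPM in siNC. It overlapped between groups and was again highest in siNC replicate 3 (-0.48, SE 0.24, edgeR adjusted p = 0.375). The cysteine proteases CTSB and CTSL were at -0.20 and 0.34, and the membrane glycoproteins LAMP1 and LAMP2 at -0.07 and -0.22.

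**Figure D4:**
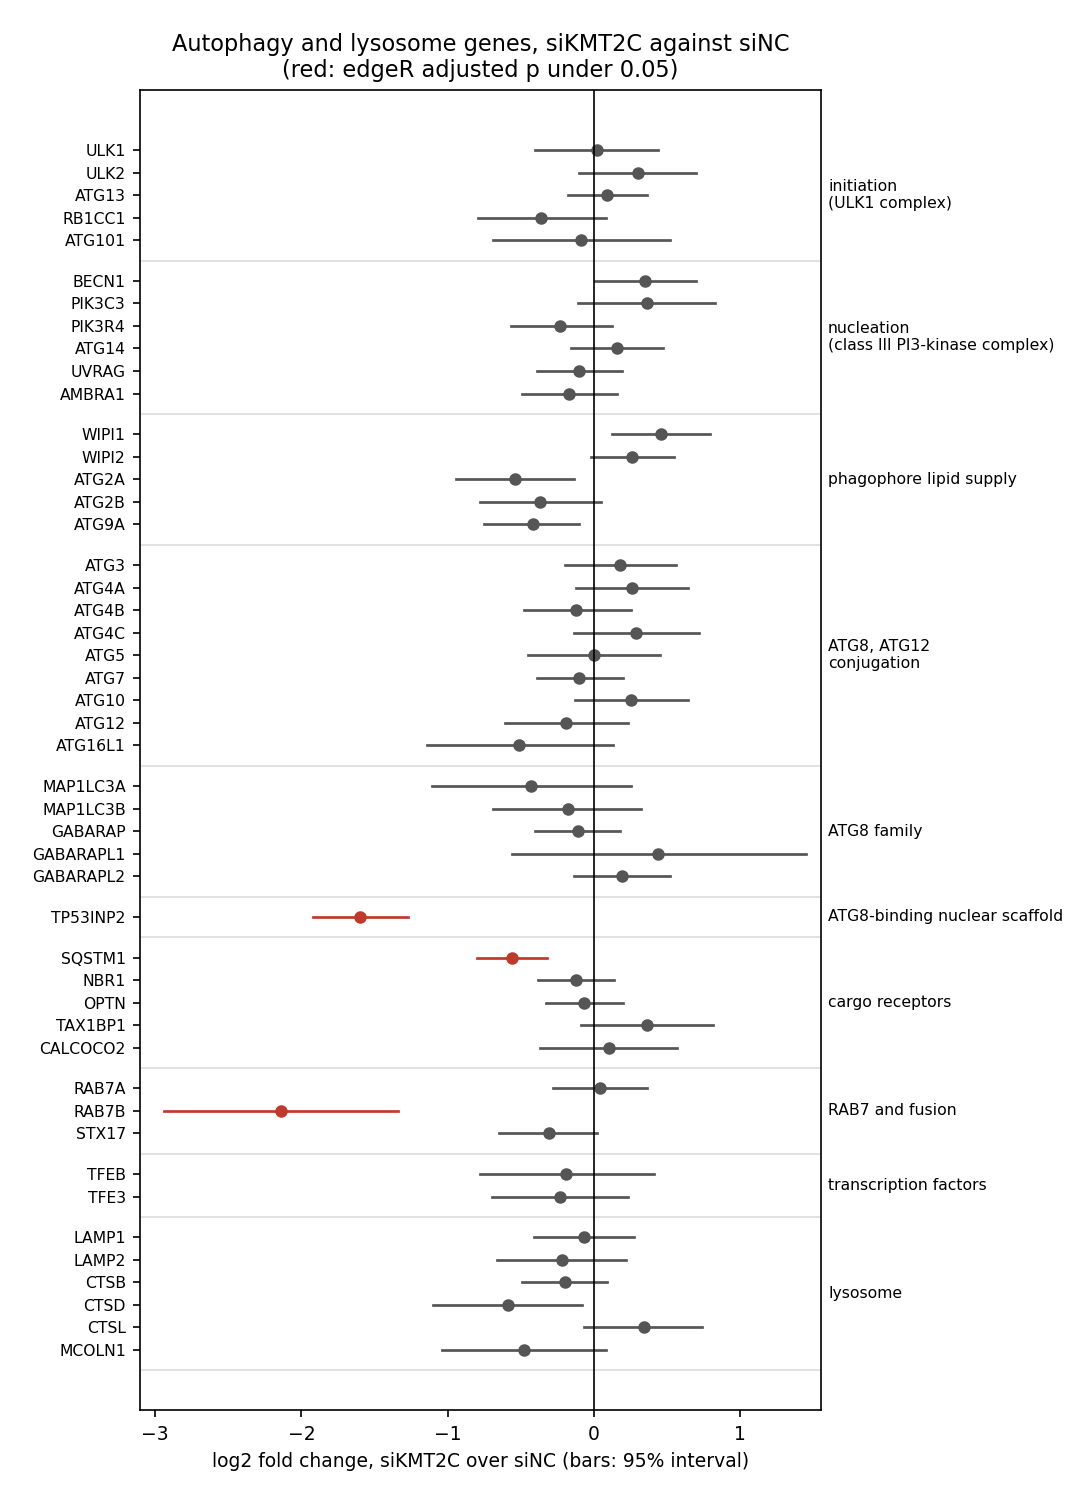
Log2 fold change of siKMT2C over siNC for the 47 members, grouped by role, with 95% intervals from the edgeR fit. Red marks the 3 called members, TP53INP2 at -1.60, RAB7B at -2.14 and SQSTM1 at -0.56; the others lie between -0.59 and 0.46.

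Around the members, 9 lists of related genes held 185 genes, of which 179 were tested. In them 3 fell and none rose, 1.68% of those tested, which is near the 1.5% called among all genes. The log2 fold change was negative in 67.0% with a median of -0.14, beside 50.3% and -0.003 over all genes. Beside TP53INP1, the called genes were ZFYVE1 and FOXO3. ZFYVE1 (DFCP1), a marker of the ER site where autophagosomes form, had 24.8, 22.6 and 22.1 CPM in siKMT2C and 39.4, 36.8 and 41.3 CPM in siNC. The groups were well separated (log2 fold change -0.76, SE 0.13, edgeR adjusted p = 0.0366). FOXO3, a transcription factor that induces autophagy genes, had 97.4, 84.7 and 93.4 CPM in siKMT2C and 147.9, 143.7 and 143.5 CPM in siNC, again without overlap (-0.66, SE 0.12, edgeR adjusted p = 0.0411). All 5 tested genes of that list (MiT/TFE and FOXO factors) were negative, with a median of -0.64. They were MITF, FOXO1, FOXO3, FOXO4 and ZKSCAN3, which belongs to neither family. TFEB and TFE3, counted among the members, lay at -0.19 and -0.23. The calls of ZFYVE1 and FOXO3 were lost without siKMT2C replicate 1 (adjusted p 0.17 and 0.191), 2 (0.163 and 0.187) or 3 (0.125 and 0.121) and without siNC replicate 1 (0.0977 and 0.0993) or 2 (0.144 and 0.176), and held without siNC replicate 3 (0.0299 and 0.0249).

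In the other lists edgeR called no gene, and 23 of their 159 tested genes had an unadjusted p under 0.05, which is 14.5% beside 16.9% of all genes. Over all 9 lists it was 31 of 179, which is 17.3%. Lysosomal hydrolases and their activators were negative in 29 of 42 (median -0.13), with FUCA1, a fucosidase, at -0.55 and LIPA, the lysosomal acid lipase, at -0.66 having the smallest p-values. Lysosomal membrane proteins were negative in 19 of 23 (median -0.21), and TMEM192 (0.48) and LAPTM4A (-0.44) led. The proton pump that acidifies the lysosome, the V-ATPase, was negative in 9 of 17 subunits (median -0.15), with ATP6V1G1 at 0.56 and ATP6V0A1 at -0.30. Genes that set mTORC1 and AMPK, the nutrient sensors upstream of ULK1, were negative in 22 of 34 (median -0.11), with the mTORC1 inhibitors TSC1 at -0.57 and SESN3 at -0.63. Among 14 other selective receptors 10 were negative (median -0.06), with the mitophagy receptor BNIP3L at -0.64 and the ER-phagy receptor RETREG1 at -0.78. RAB7 effectors and HOPS genes were negative in 14 of 21 (median -0.14), with TBC1D5, a RAB7 regulator, at -0.81 and VPS11, a HOPS subunit, at -0.37. Of 8 further RAB genes 3 were negative (median 0.11), with RAB5B at -0.29 and RAB5A at 0.28. Of the genes named here, DESeq2 called FUCA1, TMEM192, TSC1, SESN3 and BNIP3L, with adjusted p of 0.0466, 0.032, 0.0327, 0.0454 and 0.0145.

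**Figure D5:**
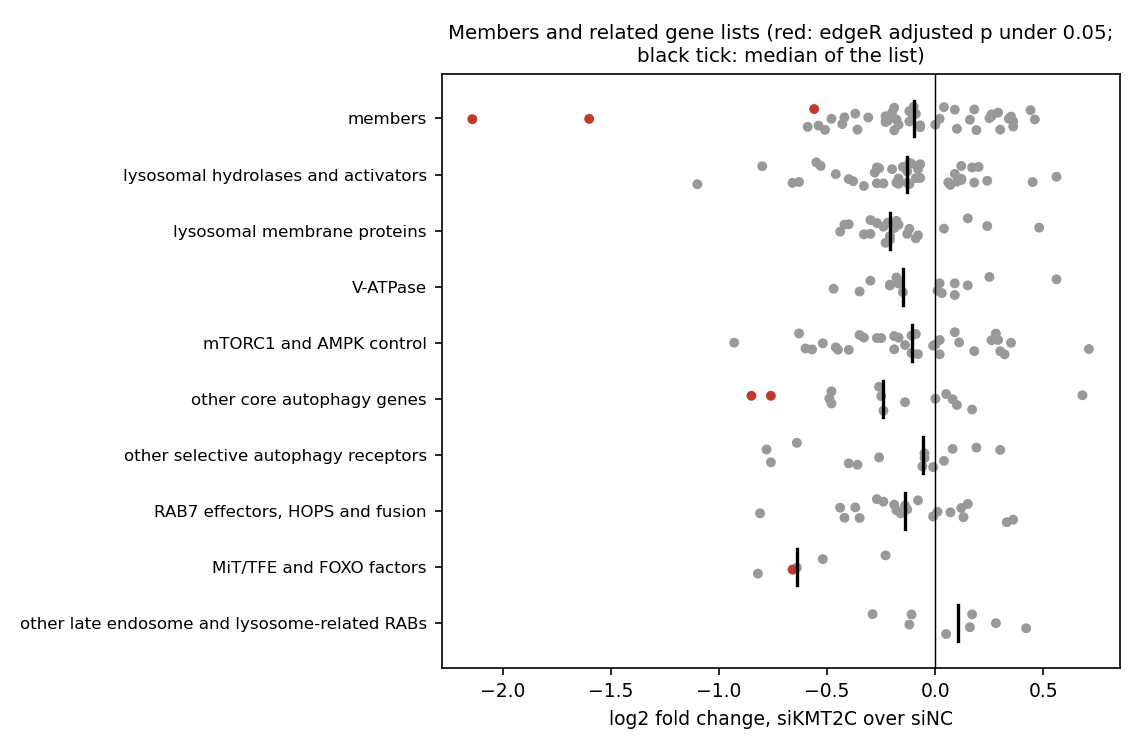
Log2 fold change of siKMT2C over siNC for each tested gene of the member set and of the 9 related lists, one dot per gene, with the median of each list as a black tick. Red dots are genes called by edgeR: 3 members, 2 other core autophagy genes (TP53INP1 and ZFYVE1) and FOXO3, all below 0.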

How the data were processed

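RNA was measured in 6 libraries. The authors deposited whole-number counts per gene and FPKM values in one table, per the file headers. CASAVA 1.8 and TopHat2 2.0.6 are named per the submitters' processing notes, which also name the mouse build mm10, although the gene identifiers are human Ensembl identifiers. The sources used here name no counting program, annotation, strand setting or human build. Symbols matched 57532 of 58302 identifiers, and 28494 had a count of 0 in every library. Coordinates and overlaps come from GENCODE 29 on GRCh38, not from the authors' build. Overlaps with other genes are described above for called members alone. Among the others, GABARAP, CTSD, ATG9A and MCOLN1 overlap a protein-coding entry on their own strand, over 2344, 11203, 3359 and 415 bases. The part of these overlaps in the levels was not tested.

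Counts were tested with edgeR 4.0.16 in R 4.3.3 (filterByExpr, TMM scaling, robust quasi-likelihood F test), with Benjamini-Hochberg adjustment over 15063 genes and a call at an adjusted p under 0.05. Standard errors were derived as |log2 fold change| over √F, and CPM uses TMM-scaled library sizes. Per-length levels divide CPM by the longest GENCODE 29 transcript. Permutation tests used scipy 1.17.1.

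The members, lists and tests were chosen with earlier results of these data known. All 47 members are reported by role. Values in every library are given for called members and for the 2 of each role with the smallest p, and the related lists name called genes or otherwise the 2 with the smallest p. GABARAPL1, RAB7A, NCOA6, MGAT4B and MRNIP were added after their values were seen. Alternatives were DESeq2 1.42.0, limma-voom (limma 3.58.1), RLE factors, scaling by library size only, testing unfiltered genes, requiring 1 CPM in 3 libraries, a replicate block and leaving out each library. Loess offsets per library (span 0.3) for GC content and length of transcripts, and the per-kilobase shares, were added after seeing the data. In counts simulated for siKMT2C against siNC (14833 genes), edgeR recovered 98.4% of 4-fold changes, 51.6% of 2-fold changes and 11.0% of 1.5-fold changes, with 4 false calls. The simulated spread followed the fitted trend over genes and held no GC-linked shift of replicate 3, so recovery in the real libraries can differ.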

Additional observations from a re-analysis of the deposited data

How the results depend on the processing

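TP53INP2 was called in all 14 alternative settings. Members called lower numbered 2 with no filter, 4 with the replicate block and 3 in the other settings that kept every library, and 1 to 3 when 1 library was left out. No member was called higher except after correction for GC content and length, where 2 were (PIK3C3 and WIPI2). The median log2 fold change of the members stayed between -0.13 and -0.08. Over all genes, 226 were called, against 864 with DESeq2, 968 with the replicate block, 1357 after GC and length correction and 16 to 620 with 1 library left out, and the cause was not tested. Genes called in the related lists numbered 3, against 10 with DESeq2, 11 with the replicate block, 15 after GC and length correction and 0 to 10 with 1 library left out.

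The labels name no batch, and whether replicate numbers pair the samples was not settled. Deviations from group means correlated at 0.0195 for number 1, 0.107 for number 2 and 0.389 for number 3, the largest value of any pair. By contrast, siKMT2C replicate 2 correlated best with siNC replicate 1 (0.318). A batch shared by the third replicates was not tested. With the replicate block ATG2A was called as well (-0.54, edgeR adjusted p = 0.0437).

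The sign turned for uncalled members near 0. It did for ULK1 under library size alone (-0.005), for ATG5 with no filter (0.003), the replicate block (0.02) and limma-voom (0.02), and after GC and length correction for ATG4B (0.02), RAB7A (-0.02) and LAMP1 (0.02). Over the single omissions the log2 fold change ran from -0.12 to 0.19 for ULK1, -0.28 to 0.22 for ATG101, -0.20 to 0.03 for ATG4B, -0.19 to 0.15 for ATG5, -0.36 to 0.01 for MAP1LC3B, -0.01 to 0.30 for CALCOCO2, -0.08 to 0.11 for RAB7A, -0.38 to 0.04 for TFEB and -0.16 to 0.04 for LAMP1. No ATG8 share changed the sign of its difference in any setting, but over the single omissions the difference in FPKM share, in percentage points, ran from -1.08 to -0.021 for MAP1LC3A, -5.41 to -0.124 for MAP1LC3B, -3.21 to -0.177 for GABARAP, 0.426 to 1.84 for GABARAPL1 and 1.54 to 7.12 for GABARAPL2. Counts of 26 to 62 per siKMT2C library limit the precision for RAB7B.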
